A study of Homo sapiens with 9 samples.

Results

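Class 3 semaphorins and their receptors were followed at the RNA level in SW480 cells and in a pair of SW480 lines that express BASP1. The 10 genes were chosen by name from the 63677 Ensembl gene identifiers of the count files. They are the ligands SEMA3A, SEMA3C, SEMA3D, SEMA3E and SEMA3F, the neuropilins NRP1 and NRP2, and the plexins PLXNA1, PLXNA2 and PLXND1, and all 10 were matched. SW480 is a human hypotriploid line from a colorectal adenocarcinoma, used here without vector or drug selection. SW480-B cells carry pcDNA3-BASP1, in which a CMV promoter drives the BASP1 coding sequence, and were grown from 1 single-cell clone after G418 selection. SW480-gRNA-B-all cells carry the MS2-P65-HSF1 activator, dCas9-VP64 and pooled sgRNAs against the BASP1 promoter, so that the endogenous gene is switched on. This line was made from a single-cell clone with the activators after hygromycin selection, and was selected again with puromycin after the sgRNAs were added. The parental cells were not cloned, and the vector-only line SW480-V is not analysed here, so that the presence of BASP1, cloning and selection cannot be told apart in a comparison with SW480. Each line has 3 RNA-seq libraries (n = 3). The RNAs were isolated in triplicate, and it is not stated whether from separate cultures, so that the p-values measure the spread between these libraries.

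Class 3 semaphorins are secreted proteins that steer growing axons and also act on endothelial, epithelial and tumor cells. Most of them bind a neuropilin, which has a short cytoplasmic tail, and signal through a plexin, whose intracellular domain acts on the actin cytoskeleton and on adhesion. SEMA3A acts mainly through NRP1, SEMA3F through NRP2, and SEMA3C through either neuropilin, whereas SEMA3E can bind PLXND1 without a neuropilin. Neuropilins are also coreceptors for VEGF, and class 3 semaphorins are cleaved by furin. The lines were sequenced to see how BASP1 alters gene expression in colon cancer cells, and the comparisons here ask how the RNAs of these ligands and receptors stood with and without it.

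The sequences before the start sites of those members whose RNA was called lower in 1 or both BASP1 lines are shown first, because they lie at the genes whose levels carry the result. RefSeq promoter windows (GRCh38.p14) were available for 8 of the 10 members, in 12 windows, and not for SEMA3A and NRP1. The 250 bases before each start were located on GRCh37 by an exact search. The windows shown are chr7:80548368-80548617 (minus strand) for SEMA3C, chr7:84816373-84816622 (minus strand) for SEMA3D, chr7:83278456-83278705 (minus strand) for SEMA3E, chr3:50192241-50192490 (plus strand) for SEMA3F and chr2:206546975-206547224 (plus strand) for NRP2. Each is written 5′ to 3′ on the strand of its gene and ends 1 base before the start site. Capitals mark matches on either strand to the E-box CACGTG, the GC box GGGCGG, the TCF/LEF core CTTTGA, the AP-1 site TGANTCA and the WT1/EGR site GCGNGGGCG, of which the GC box and the WT1/EGR site can overlap.
SEMA3C: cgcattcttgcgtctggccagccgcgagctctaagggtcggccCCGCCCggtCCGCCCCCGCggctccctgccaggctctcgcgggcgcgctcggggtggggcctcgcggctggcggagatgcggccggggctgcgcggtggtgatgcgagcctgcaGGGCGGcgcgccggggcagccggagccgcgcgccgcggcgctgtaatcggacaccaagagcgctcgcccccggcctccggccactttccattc
SEMA3D: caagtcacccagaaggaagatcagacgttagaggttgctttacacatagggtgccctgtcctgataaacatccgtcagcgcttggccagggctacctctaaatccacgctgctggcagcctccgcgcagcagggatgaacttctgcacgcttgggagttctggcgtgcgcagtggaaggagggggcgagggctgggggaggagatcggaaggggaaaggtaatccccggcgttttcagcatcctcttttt
SEMA3E: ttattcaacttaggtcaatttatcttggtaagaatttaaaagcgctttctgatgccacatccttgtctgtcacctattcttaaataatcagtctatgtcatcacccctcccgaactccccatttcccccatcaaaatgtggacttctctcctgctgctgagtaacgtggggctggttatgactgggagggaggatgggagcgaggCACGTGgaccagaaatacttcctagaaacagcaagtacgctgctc
SEMA3F: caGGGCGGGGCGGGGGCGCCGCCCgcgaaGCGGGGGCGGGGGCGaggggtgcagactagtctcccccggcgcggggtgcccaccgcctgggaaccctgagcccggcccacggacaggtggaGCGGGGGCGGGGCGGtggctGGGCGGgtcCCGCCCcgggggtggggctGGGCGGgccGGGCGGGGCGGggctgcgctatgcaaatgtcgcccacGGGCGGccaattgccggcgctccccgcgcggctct
NRP2: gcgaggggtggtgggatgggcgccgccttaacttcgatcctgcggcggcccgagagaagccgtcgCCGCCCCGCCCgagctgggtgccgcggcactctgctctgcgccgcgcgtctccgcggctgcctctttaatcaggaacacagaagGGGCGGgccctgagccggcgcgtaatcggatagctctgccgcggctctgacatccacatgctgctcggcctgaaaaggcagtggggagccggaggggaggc

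Of the windows shown, those of SEMA3C, SEMA3F and NRP2 were rich in GC and held GC boxes, whereas those of SEMA3D and SEMA3E held no GC box. The GC content was 82% for the SEMA3F window shown, with 12 GC boxes and 4 WT1/EGR matches, and 70% for NRP2, with 3 GC boxes. SEMA3F has 2 further windows, one with 80.4% GC, 2 GC boxes and 1 WT1/EGR match, and one with 52.8% GC, no GC box and a TCF/LEF core 48 bases before its start. The SEMA3C window shown had 77.6% GC, 3 GC boxes and 1 WT1/EGR match, and precedes a start 3308 bases inside the annotated gene. A further SEMA3C window, beside the annotated start, had 36.4% GC and none of the motifs. The SEMA3D window had 57.6% GC and no motif. The SEMA3E window had 46.4% GC and a single E-box, 45 bases before the start, and a second SEMA3E window, farther inside the gene, had 34.8% GC and no motif. A GC box was present in 42.6% of all 35116 RefSeq windows of this length, a WT1/EGR match in 8.41%, an E-box in 6.34%, a TCF/LEF core in 11.2% and an AP-1 site in 6.57%, and the median window had 58% GC. The windows of PLXNA1 (84.4% GC), PLXND1 (88.8%) and PLXNA2 (72.4%), whose RNA was not called lower, were rich in GC as well, and each held GC boxes and a WT1/EGR match, with a TCF/LEF core in that of PLXNA1.

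Whole libraries held between 25238831 and 29355669 counts on genes, and an absence of counts allows up to 3 of them, which is 0.100 to 0.116 CPM (counts scaled to the library size by edgeR's TMM method). These limits and all counting intervals cover counting error only. As a check of the labels, BASP1 stood at 11.9, 8.03 and 0.691 CPM in parental cells, at 268, 268 and 250.3 CPM in SW480-B and at 167, 303 and 300.1 CPM in SW480-gRNA-B-all. In SW480-gRNA-B-all, replicates 2 and 3 were more than 2-fold apart for 2.08% of genes, and the remaining pairs within a line for 11.1% to 30.8%. The highest share was that of replicates 1 and 3 of SW480, the line set against both BASP1 lines. Markers of intestinal epithelium (EPCAM, KRT8, KRT18, KRT19, CDX2, VIL1 and CDH1) summed to between 6331 and 11358 CPM in every library, with none of 7 at 0. Of these, CDX2 and VIL1 were lower in SW480-gRNA-B-all and VIL1 in SW480-B, by a call that needs an adjusted p under 0.05 (edgeR) and a change above 2-fold. In SW480-B 4 of the 7 markers had a log2 fold change above 0 and 3 below 0, with none called higher. CDX2 averaged 61.4 CPM there, against 34.3 CPM in SW480. Endothelial markers, of interest because endothelium uses neuropilins and PLXND1, summed to 0.689 to 4.34 CPM over 4 genes. Fibroblast markers were COL1A1, COL1A2, COL3A1 and DCN. They summed to 3.65 to 4.47 CPM in SW480, 2.26 to 8.43 CPM in SW480-B and 7.89 to 10.7 CPM in SW480-gRNA-B-all. In SW480-gRNA-B-all 3 of these 4 were at 0, so that the sum is COL1A1 alone. COL1A1 was called higher there than in SW480 (9.34 against 4.03 CPM), whereas COL1A2 and DCN held 9 and 5 counts in SW480. Leukocyte markers summed to 0.134 to 1.02 CPM over all libraries. Neuronal markers (TUBB3, RBFOX3, SYP and MAP2) summed to 8.40 to 67.5 CPM in SW480, 4.81 to 10.9 CPM in SW480-B and 1.97 to 6.60 CPM in SW480-gRNA-B-all, with 1 of the 4 at 0 in each line and MAP2 called lower in SW480-gRNA-B-all (0.293 against 10.2 CPM in SW480). They were thus highest where the semaphorins were highest, and their part in the results was not tested.

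As sums over the members of each role, the 5 ligands were lower in both BASP1 lines. The sums of plexins and neuropilins overlapped with SW480 in at least 1 of these lines. Summed over the 5 semaphorins, the level per exon length (RPKM, CPM divided by the exon length in kilobases) ranged from 12.1 to 46.9 in SW480, from 0.912 to 2.52 in SW480-B and from 0.205 to 0.284 in SW480-gRNA-B-all. The 3 plexins summed to 12.6 to 32.6 RPKM in SW480, 26.7 to 34.1 in SW480-B, and 26.5 to 31.1 in SW480-gRNA-B-all. The neuropilins summed to 3.16 to 9.86 RPKM in SW480, 12.2 to 29.5 in SW480-B, and 2.79 to 15.6 in SW480-gRNA-B-all. The semaphorin sums did not overlap between any pair of lines, the plexin sums overlapped in all of them, and the neuropilin sums of SW480-gRNA-B-all spanned those of SW480. The semaphorin sums leave out SEMA3B and SEMA3G, which are not members. SEMA3B averaged 9.79 RPKM in SW480, 14.6 in SW480-B and 11.9 in SW480-gRNA-B-all, and SEMA3G 0.388, 0.109 and 1.73.

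**Figure D1:**
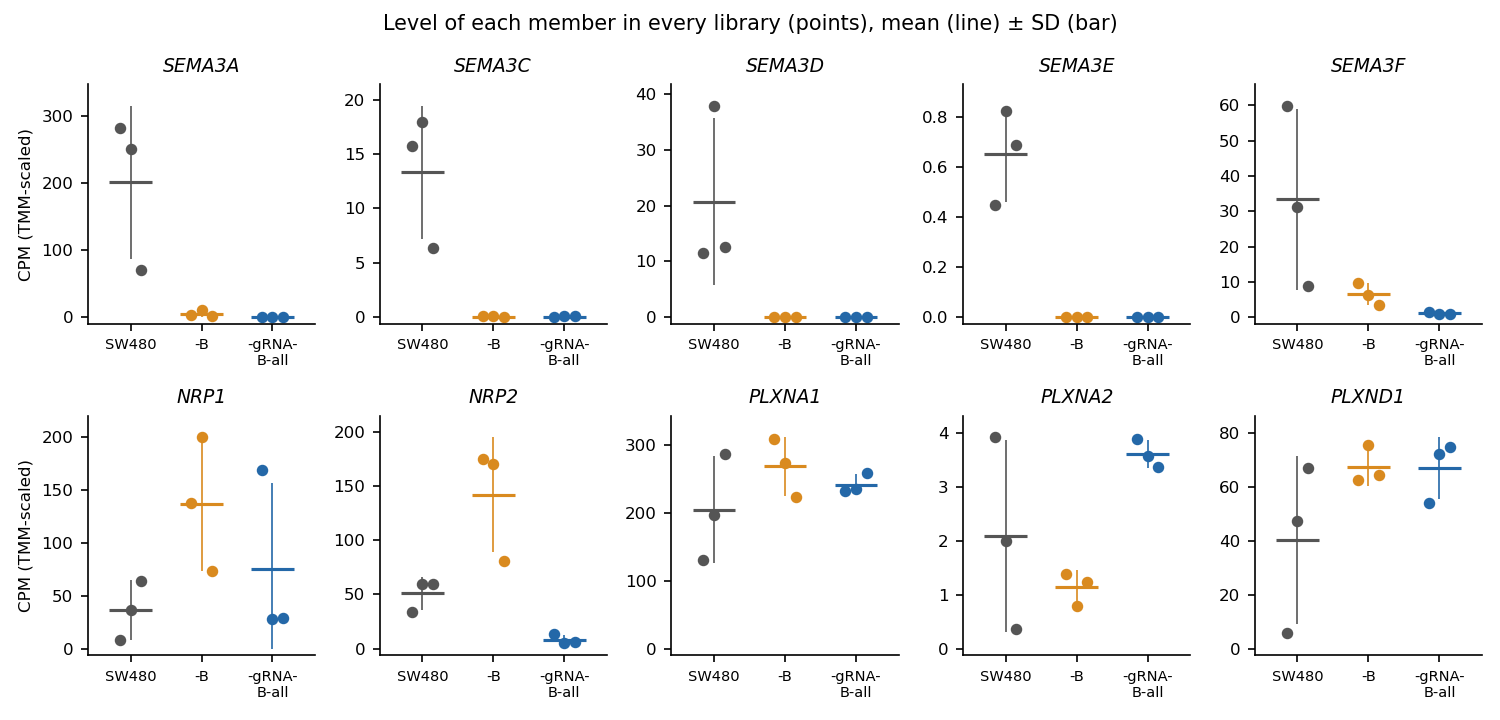
CPM (counts scaled to library size by TMM, linear axis) of the 10 members in each of the 9 libraries: points are libraries, horizontal lines the mean and vertical bars the SD of 3 libraries, cut at 0. SEMA3C, SEMA3D and SEMA3E lie at or near 0 in both BASP1 lines, SEMA3A and SEMA3F reach 11.1 and 9.66 CPM in SW480-B, NRP2 is highest in SW480-B and lowest in SW480-gRNA-B-all, and the plexins PLXNA1 and PLXND1 overlap between lines.

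Per exon length, SEMA3A was the most abundant member in SW480 on average, with 21.7 ± 12.3 RPKM (SD, n = 3), followed by PLXNA1 with 18.2 ± 6.96. SEMA3F (6.92 ± 5.30 RPKM), PLXND1 (4.20 ± 3.26), NRP2 (3.66 ± 1.06), NRP1 (3.17 ± 2.43), SEMA3D (2.51 ± 1.81) and SEMA3C (2.19 ± 1.00) came next, and PLXNA2 (0.151 ± 0.129) and SEMA3E (0.0775 ± 0.0228) were lowest. In this order, SEMA3C and PLXNA2 were the only neighbours whose libraries did not overlap. In SW480-B the order was PLXNA1 (23.9 ± 3.83 RPKM), NRP1 (11.9 ± 5.48), NRP2 (10.2 ± 3.82), PLXND1 (7.05 ± 0.737), SEMA3F (1.35 ± 0.639), SEMA3A (0.564 ± 0.551), PLXNA2 (0.0822 ± 0.0228) and SEMA3C (0.0081 ± 0.0070), with SEMA3D and SEMA3E at 0. In SW480-gRNA-B-all it was PLXNA1 (21.5 ± 1.32 RPKM), PLXND1 (7.01 ± 1.19), NRP1 (6.53 ± 7.06), NRP2 (0.596 ± 0.307), PLXNA2 (0.261 ± 0.0190), SEMA3F (0.230 ± 0.0454), SEMA3C (0.0073 ± 0.0063) and SEMA3A (0.0024 ± 0.0021), again with SEMA3D and SEMA3E at 0. PLXNA1, a signaling receptor used together with neuropilins, thus led both BASP1 lines. SEMA3A, at the top of the order in SW480, stood between SEMA3F and PLXNA2 in SW480-B. In SW480-gRNA-B-all it was the lowest member with any count.

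**Figure D2:**
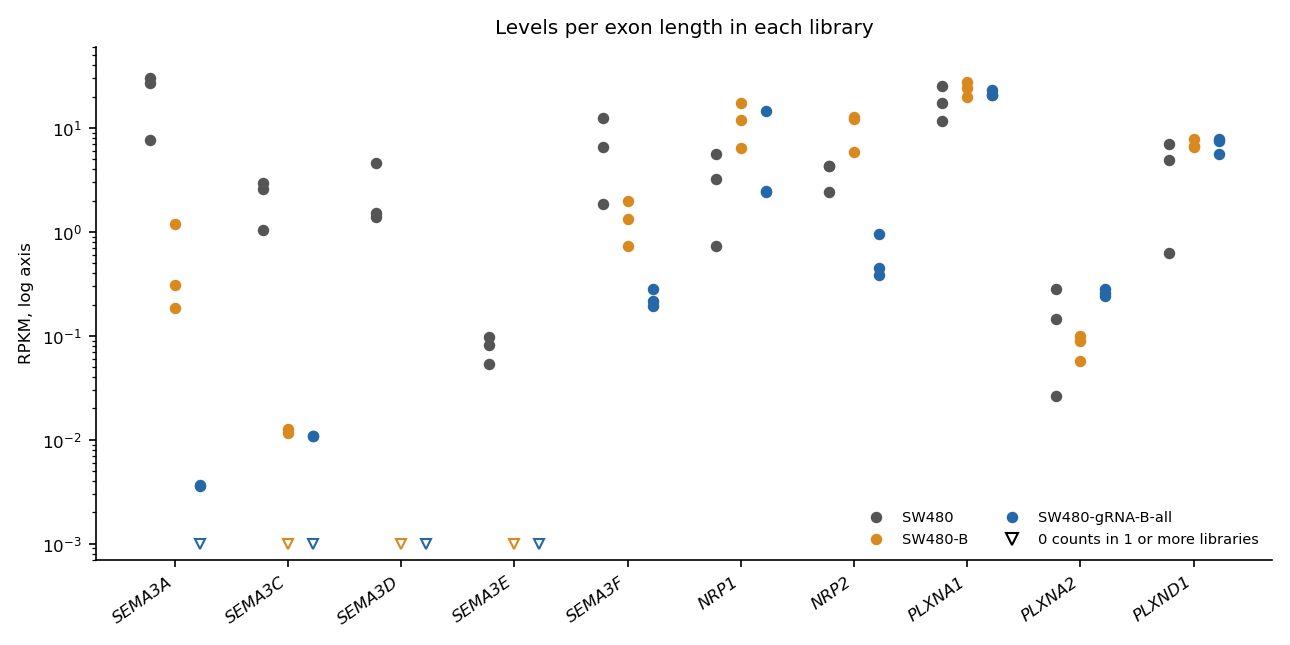
RPKM (CPM per kilobase of exon, log axis) of the members in each library. Filled points are libraries with at least 1 count, and open triangles at the lower edge stand for 1 or more libraries with 0 counts. PLXNA1 lies between 11.7 and 27.5 RPKM in all 9 libraries, whereas SEMA3A spans from 30.4 RPKM to 0.

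SEMA3A, the first collapsin described and a repellent for sensory and other axons, reached 282, 251 and 70.2 CPM in SW480, 2.86, 11.1 and 1.73 CPM in SW480-B, and 0.0339, 0.0334 and 0 CPM in SW480-gRNA-B-all. The lines did not overlap, and the last line held 2 counts in all, against 434 in SW480-B and 17397 in SW480. The level in SW480-gRNA-B-all was lower than in SW480 by a ratio of 9091 (95% counting interval 2516 to 75076), and the difference passed the quasi-likelihood test of edgeR with p-values adjusted by Benjamini and Hochberg's method over all genes (adjusted p = 0.0047). In SW480-B its log2 fold change from SW480 was -5.24, with a standard error of 0.83 (adjusted p = 0.029, edgeR). In a bulk sample, fewer cells with the transcript and less of it per cell cannot be told apart.

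SEMA3C, which binds both neuropilins, had 15.7, 17.9 and 6.40 CPM in SW480. In each BASP1 line 4 counts were found over the 3 libraries, against 1152 in SW480. This corresponds to a ratio of 301 (95% counting interval 117 to 1107) for SW480-gRNA-B-all and of 277 (108 to 1018) for SW480-B. edgeR gave an adjusted p of 0.0061 and 0.0094, respectively.

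SEMA3D, a ligand of NRP1 with roles in vessels and the heart, had 11.5, 37.9 and 12.7 CPM in SW480 and not a single count in the 6 libraries of the BASP1 lines. Against a floor of 3 counts per line it was at least 621-fold lower in SW480-gRNA-B-all and at least 571-fold lower in SW480-B, with adjusted p = 0.013 and 0.012 (edgeR). Leaving out the SW480 library with the highest value lowered these bounds to 360 and 331. SEMA3E, the ligand of PLXND1, was barely present in SW480, with 0.448, 0.827 and 0.691 CPM from 56 counts. It had no count in either BASP1 line, so that it was at least 19.5-fold lower in SW480-gRNA-B-all and at least 17.9-fold lower in SW480-B (adjusted p = 0.019 and 0.036, edgeR). With the replicate number as a block, which pairs the libraries of SW480-B and SW480, SEMA3E was not called in SW480-B (adjusted p = 0.066, edgeR).

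SEMA3F, a ligand of NRP2 that was cloned from a region deleted in lung cancer, had 59.9, 31.3 and 8.88 CPM in SW480, 9.66, 6.34 and 3.50 CPM in SW480-B and 1.35, 1.03 and 0.935 CPM in SW480-gRNA-B-all. The libraries of SW480-B and SW480 overlapped, through replicate 3 of SW480, whereas those of SW480-gRNA-B-all lay below all others. SEMA3F in SW480-gRNA-B-all was called lower, with a log2 fold change of -4.92 and a standard error of 0.72 (adjusted p = 0.016, edgeR). In SW480-B, where the log2 fold change was -2.33 with a standard error of 0.66 (adjusted p = 0.16, edgeR), it was not called. With the replicate block it was called in SW480-B too (log2 fold change -2.07, adjusted p = 0.030, edgeR), as it was without replicate 3 of SW480 (adjusted p = 0.011).

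NRP2, the receptor of SEMA3F, stood on opposite sides of SW480 in the BASP1 lines. It had 33.8, 59.4 and 59.4 CPM in SW480, 175, 169.7 and 80.6 CPM in SW480-B, and 13.2, 5.37 and 6.28 CPM in SW480-gRNA-B-all, and no library of one line overlapped another line. In SW480-gRNA-B-all NRP2 fell by 2.62 on the log2 scale, with a standard error of 0.42 (adjusted p = 0.019, edgeR). The difference of 1.51 for SW480-B over SW480 (standard error 0.35) was not called by edgeR (adjusted p = 0.098), while DESeq2 gave an adjusted p of 0.0059. NRP1, the receptor of SEMA3A and a VEGF coreceptor, had 8.33, 36.8 and 64.3 CPM in SW480, 137, 199.7 and 73.4 CPM in SW480-B and 169, 27.7 and 28.8 CPM in SW480-gRNA-B-all. Each SW480-B library lay above each SW480 library, whereas in SW480-gRNA-B-all a single library was high. NRP1 was not called (log2 fold change 1.93, standard error 0.66, adjusted p = 0.22 in SW480-B, and 1.04, standard error 0.92, adjusted p = 0.48 in SW480-gRNA-B-all, edgeR), and DESeq2 gave an adjusted p of 0.041 in SW480-B. Without replicate 1 of SW480-gRNA-B-all the log2 fold change of NRP1 from SW480 was -0.37 (adjusted p = 0.78, edgeR).

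None of the plexins was called against SW480. PLXNA1, the most abundant receptor, had 131, 197 and 287 CPM in SW480, 309, 273 and 223 CPM in SW480-B and 232, 235 and 259 CPM in SW480-gRNA-B-all, with log2 fold changes of 0.42 (standard error 0.31) and 0.23 (standard error 0.28) in SW480-B and SW480-gRNA-B-all. PLXND1, the receptor of SEMA3E, had 5.99, 47.4 and 67.0 CPM in SW480, 62.5, 75.5 and 64.2 CPM in SW480-B and 53.9, 72.1 and 74.9 CPM in SW480-gRNA-B-all. A single SW480 library was thus far below the rest, and the log2 fold changes were 0.78 (standard error 0.67) and 0.73 (standard error 0.71). PLXNA2, a further plexin of the A class, had 3.92, 2.00 and 0.364 CPM in SW480, 1.39, 0.784 and 1.24 CPM in SW480-B and 3.90, 3.57 and 3.37 CPM in SW480-gRNA-B-all. Its SW480 libraries spanned the values of both other lines. PLXNA2 had log2 fold changes of -0.84 (standard error 0.75) in SW480-B and 0.78 (standard error 0.71) in SW480-gRNA-B-all.

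Set beside SW480, 6 of the 10 members were called lower in the cells with CRISPR-activated BASP1 (SEMA3A, SEMA3C, SEMA3D, SEMA3E, SEMA3F and NRP2) and none higher. Of all 16100 genes tested there, 4.66% were called lower and 1.89% higher. In SW480-B 4 of the 10 were called lower (SEMA3A, SEMA3C, SEMA3D and SEMA3E) and none higher, against 1.25% and 0.0931% of 16106 genes. All 10 passed the filter on low counts in both comparisons, but SEMA3C, SEMA3D and SEMA3E, and SEMA3A in SW480-gRNA-B-all, passed it through SW480 alone, so that for these a difference could only be a lower level in the BASP1 line. The median log2 fold change of the members was -3.77 in SW480-gRNA-B-all (-3.46 with SEMA3D and SEMA3E at their bounds) beside -0.05 over all genes, and -1.58 in SW480-B beside -0.0039. Both comparisons use the same SW480 libraries.

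The number of calls turned on single libraries. Without replicate 2 of SW480 no member was called in SW480-gRNA-B-all, with adjusted p between 0.0501 and 0.0964 for the 6 genes (edgeR), and 8 genes were called in all. Without replicate 1, 2 or 3 of SW480-gRNA-B-all, or with replicates 2 and 3 summed into 1 library, 3 members were called. SEMA3A and SEMA3C were called in 5 of 6 such fits with 1 library left out, SEMA3D in 4, NRP2 in 3, and SEMA3E and SEMA3F in 2. In SW480-B no member was called without replicate 1 or replicate 2 of that line, 1 without its replicate 3, and 2 without replicate 2 of SW480. DESeq2 called 7 members in SW480-B, 5 lower and 2 higher.

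**Figure D3:**
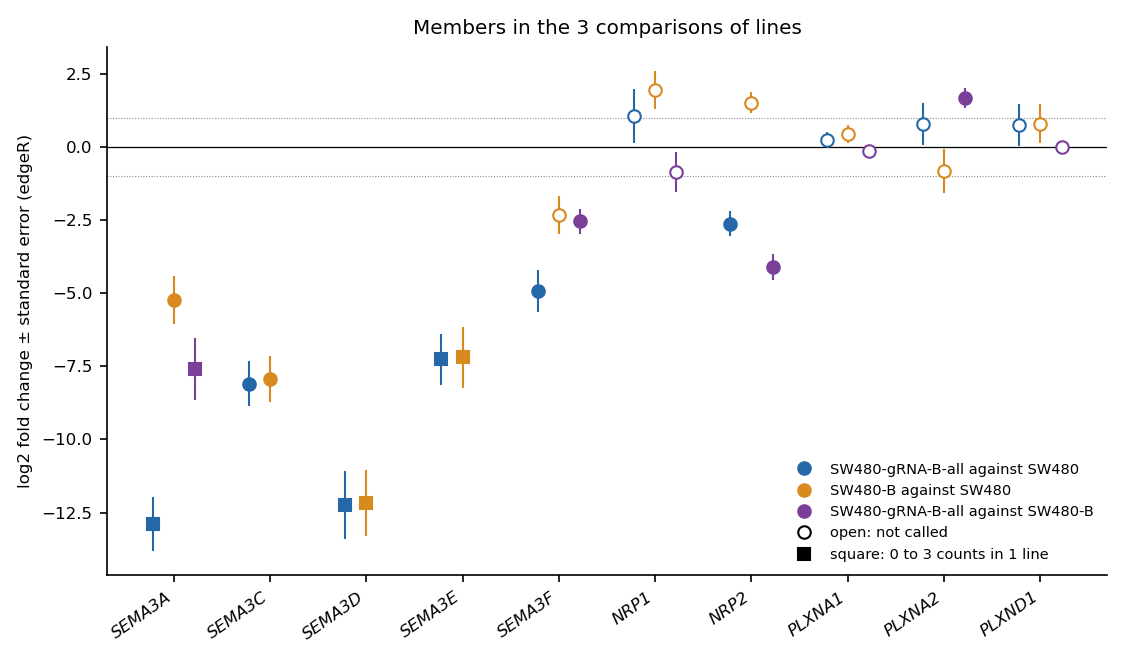
log2 fold change with standard error (edgeR quasi-likelihood fit) of each member in the 3 comparisons. Filled symbols passed an adjusted p under 0.05 and a 2-fold change, open symbols did not, and squares mark genes with 0 to 3 counts in 1 line, whose fitted value depends on the prior count; dotted lines mark a 2-fold change. The semaphorins lie below 0 wherever they were tested, and NRP2 lies at -2.62 in SW480-gRNA-B-all and at 1.51 in SW480-B.

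The BASP1 lines also differed from each other in the members. The counts of BASP1 itself did not differ between them beyond its spread (log2 fold change -0.03, standard error 0.24). In the paper's Northern analysis the ectopic BASP1 transcript of SW480-B is shorter than the endogenous transcript. Counts were not corrected for this, so that equal counts need not mean equal numbers of transcripts. Of the 7 members tested, SEMA3A, SEMA3F and NRP2 were called lower, and PLXNA2 higher, in SW480-gRNA-B-all when set against SW480-B, beside 4.37% and 2.31% of 15846 genes. NRP2 was 17.2-fold lower (log2 fold change -4.10, standard error 0.44, adjusted p = 0.0023, edgeR), and was called in all 6 fits with 1 library left out. SEMA3A, with 2 counts against 434, was lower by a ratio of 236 (95% counting interval 64.9 to 1955). It had an adjusted p of 0.0056 (edgeR) and was likewise called in 6 of 6 fits. SEMA3A passed the filter on low counts through SW480-B alone, so that it could only be lower in SW480-gRNA-B-all. SEMA3F was 5.87-fold lower (log2 fold change -2.55, standard error 0.43, adjusted p = 0.011) and PLXNA2 3.16-fold higher (log2 fold change 1.66, standard error 0.34, adjusted p = 0.021), in 4 and 3 of the 6 fits. Both were lost without replicate 2 or replicate 3 of SW480-gRNA-B-all, and PLXNA2 also without replicate 2 of SW480-B. NRP1 was not called (log2 fold change -0.87, standard error 0.69), but was called without replicate 1 of SW480-gRNA-B-all (log2 fold change -2.25, adjusted p = 0.022, edgeR). PLXNA1 and PLXND1 had log2 fold changes of -0.15 (standard error 0.18) and -0.01 (standard error 0.18). SEMA3C, SEMA3D and SEMA3E held 4, 0 and 0 counts in each BASP1 line and were not tested.

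Position in the genome separates the ligands into 2 sets. SEMA3A, SEMA3C, SEMA3D and SEMA3E lie on the minus strand of chromosome 7 (GRCh37), in a stretch of 4.44 Mb from the end of SEMA3C at chr7:80371854 to the start of SEMA3D at chr7:84816372. SEMA3F lies on chromosome 3, as do PLXNA1 and PLXND1, while NRP2 is on chromosome 2, NRP1 on chromosome 10 and PLXNA2 on chromosome 1. The stretch on chromosome 7, which was examined after the values of its semaphorins had been seen, holds 32 annotated genes, of which 7 are protein-coding and 13 had any count. Besides the semaphorins, CACNA2D1 and PCLO passed the filter against SW480. CACNA2D1, a calcium channel subunit, was called lower in both BASP1 lines, with 14.8 CPM in SW480 (mean), 0.0722 CPM in SW480-B and no count in SW480-gRNA-B-all (adjusted p = 0.011 and 0.016, edgeR). PCLO, a scaffold protein of the presynaptic zone, averaged 67.7 CPM in SW480, 27.5 in SW480-B and 12.2 in SW480-gRNA-B-all, and was not called (adjusted p = 0.25 and 0.057, edgeR). Thus 5 of the 6 tested genes of the stretch were called lower in each line, beside 4.66% (SW480-gRNA-B-all) and 1.25% (SW480-B) of all genes. Of these 5, 4 are the semaphorins that prompted the look, and CACNA2D1 (1286 counts in SW480, 6 in SW480-B, 0 in SW480-gRNA-B-all) passed the filter through SW480 alone, so that it could only be lower. It was called in 3 and 2 of the 6 fits with 1 library left out (SW480-B and SW480-gRNA-B-all).

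Past SEMA3C, low values were found for part of the genes. Within 3 Mb on that side 5 genes were tested against SW480. The line SW480-gRNA-B-all had 2 of them called lower, and SW480-B had 1. MAGI2, PHTF2 and TMEM60 were called in neither line. Their log2 fold changes were -1.35, -0.37 and -0.11 for SW480-gRNA-B-all, and -1.13, -0.35 and -0.05 for SW480-B. CD36, a fatty acid transporter whose start lies 553 kb from that of SEMA3C, had 2.11 CPM in SW480 (182 counts), 1 count in SW480-B and 0 counts in SW480-gRNA-B-all, and was called lower in both, each in 2 of the 6 fits with 1 library left out. It too passed the filter through SW480 alone. GNAI1, a G protein subunit farther out, was called in SW480-gRNA-B-all (log2 fold change -7.07, standard error 1.42, adjusted p = 0.034, edgeR). Its value in SW480-B was -2.63 (adjusted p = 0.071, edgeR). GNAI1 had 2.20, 0.100 and 0 CPM in SW480-gRNA-B-all, so that it passed the filter there through the SW480 libraries. The call in SW480-gRNA-B-all was kept in 3 of 6 such fits. Within 3 Mb beyond SEMA3D, 12 genes were tested. ABCB1, the drug efflux pump, was the only one of them called in SW480-gRNA-B-all (log2 fold change -3.70, adjusted p = 0.030, 2 of 6 such fits), and none was called in SW480-B. PCLO, between SEMA3C and SEMA3E, kept RNA in every library, with 2229 counts in SW480-B and 1085 in SW480-gRNA-B-all. The number of copies of this stretch was not measured, and its part in the levels was not tested.

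**Figure D4:**
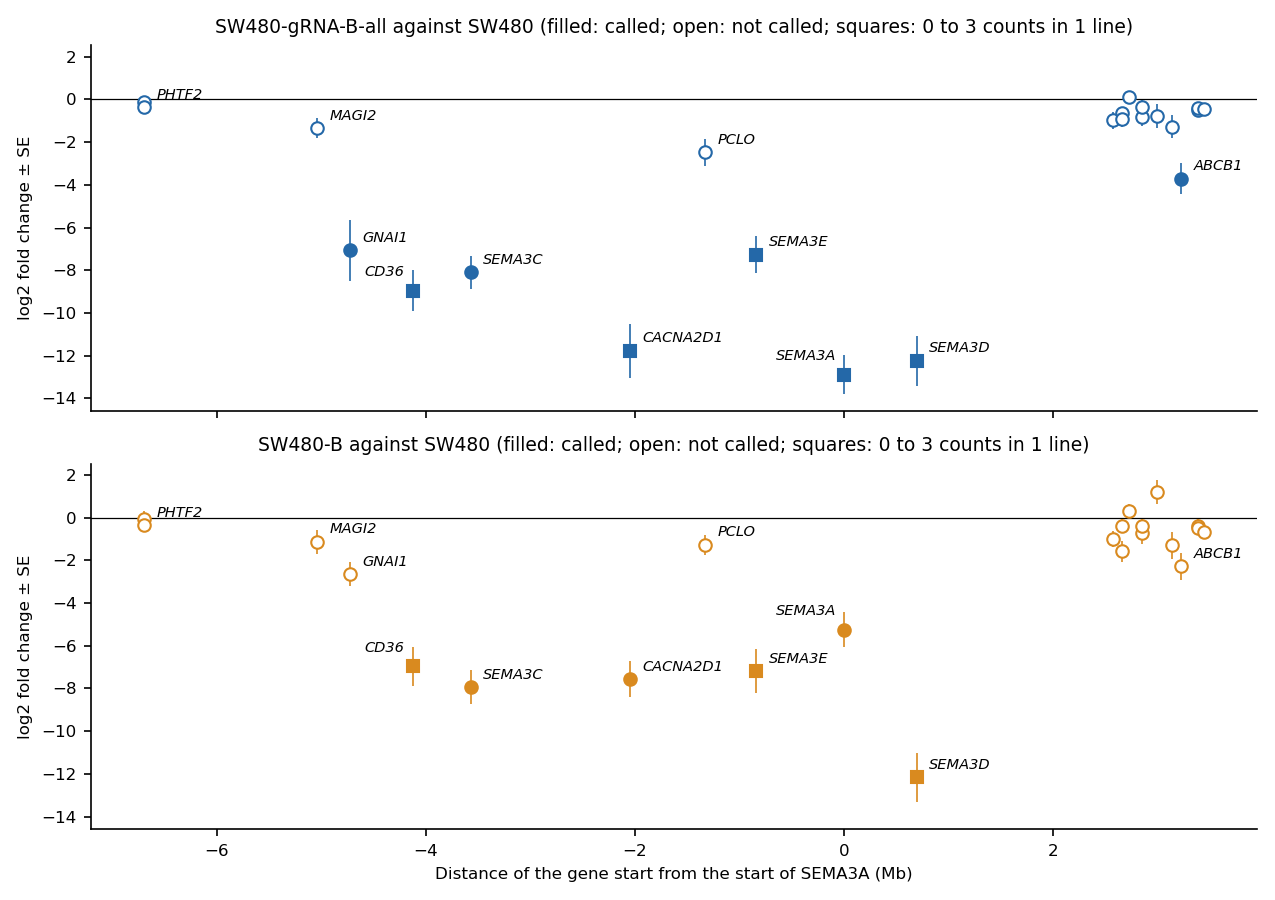
log2 fold change with standard error (edgeR) of every tested gene from 3 Mb before SEMA3C to 3 Mb beyond SEMA3D on chromosome 7, against the distance of its start from the start of SEMA3A in Mb, for the BASP1 lines against SW480. Filled symbols were called, open ones were not, and squares mark 0 to 3 counts in 1 line. The semaphorins, CACNA2D1 and CD36 lie below -5 in both panels, PCLO lies among them at -2.48 and -1.26, and the genes beyond SEMA3D lie between -1.57 and 1.20 except ABCB1.

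The neighbours of the members on other chromosomes were read against the same shares of all genes (4.66% lower and 1.89% higher for SW480-gRNA-B-all, 1.25% and 0.0931% for SW480-B, 4.37% and 2.31% between the BASP1 lines). Within 1 Mb of the start of SEMA3F, 46 genes were tested for SW480-gRNA-B-all over SW480, and CAMKV, a calmodulin kinase-like protein of vesicles, was the one called (log2 fold change -3.27, standard error 0.53, adjusted p = 0.021, edgeR). None of 47 was called in SW480-B. SEMA3B, the class 3 semaphorin that neighbours SEMA3F, averaged 56.5 ± 23.8 CPM (SD, n = 3) in SW480, 84.5 ± 19.2 in SW480-B and 68.5 ± 8.45 in SW480-gRNA-B-all, and was not called in any comparison. When the BASP1 lines were compared, 2 of the 44 genes tested around SEMA3F were called, both higher in SW480-gRNA-B-all, where SEMA3F itself was lower. They were MST1 (log2 fold change 1.20, standard error 0.27, adjusted p = 0.031) and KLHDC8B (1.85, standard error 0.45, adjusted p = 0.041, edgeR). None of the 7 tested genes around NRP2 was called against SW480. Between the BASP1 lines, CMKLR2, a chemerin receptor 536 kb from NRP2, was called lower on the SW480-gRNA-B-all side, by -3.89 in log2 fold change with a standard error of 0.89 (adjusted p = 0.032, edgeR). In the same comparison KLF15, a transcription factor 625 kb from PLXNA1, was lower with a log2 fold change of -1.64, and EFCC1, 605 kb from PLXND1, was higher with 3.09 (adjusted p = 0.036 and 0.0075, edgeR). They were the only ones called of 16 tested genes around PLXNA1 and 24 around PLXND1. Against SW480 none was called around these plexins, and none of the 3 tested genes around NRP1 was called in any comparison. Against the parental cells, CD46, a complement regulator 492 kb from PLXNA2, was called in the line SW480-gRNA-B-all with a log2 fold change of -1.07, by edgeR (adjusted p = 0.025). CD46 was the only one called of 4 tested genes around PLXNA2.

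Other genes of the pathway were taken from a list of ligands, receptors and transducers. Of 59 genes, 49 were tested for SW480-gRNA-B-all over SW480, and 2 were called higher and 2 lower, beside 1.89% and 4.66% of all genes, with a median log2 fold change of -0.01. SEMA7A, a membrane-anchored semaphorin that binds PLXNC1 and integrins, was higher (24.8 against 4.15 CPM, log2 fold change 2.57, standard error 0.48, adjusted p = 0.028, edgeR). PGF, a placental growth factor of the VEGF family, was higher as well (3.95 against 1.08 CPM, log2 fold change 1.86, standard error 0.32, adjusted p = 0.023). CHL1, an adhesion coreceptor of SEMA3A, had 1.55 CPM in SW480 and no count in either BASP1 line. It passed the filter on low counts through SW480 alone, so that it could only be lower. CHL1 passed the call in SW480-gRNA-B-all, with an adjusted p of 0.034 (edgeR), but not in SW480-B, with 0.051. DPYSL3, a collapsin response mediator protein that binds tubulin and actin downstream of semaphorin signaling, fell by 3.92 on the log2 scale in SW480-gRNA-B-all (9.50 against 143 CPM, standard error 0.35, adjusted p = 0.0054), and it fell by 2.55 in SW480-B (23.9 CPM, standard error 0.39, adjusted p = 0.026). In SW480-B it was the only one of 50 tested genes called, beside 1.25% of all genes called lower. That call was lost without replicate 1 or replicate 2 of SW480-B, where no gene at all was called. For SW480-gRNA-B-all, 8 genes in all were called without replicate 2 of SW480. Of 7 tested genes among the other class 3 semaphorins and plexins, none was called in either line against SW480, and of the 27 transducers with furin none but DPYSL3.

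Between the BASP1 lines, 4 pathway genes were higher and 3 were lower on the SW480-gRNA-B-all side, of 48 tested, beside 2.31% and 4.37% of all genes. SEMA3G, a class 3 semaphorin of endothelium that was not among the 10 members, averaged 8.72 CPM there, 0.548 in SW480-B and 1.96 in SW480 (log2 fold change from SW480-B 3.98, standard error 0.61, adjusted p = 0.0078, edgeR). It was the one class 3 semaphorin whose mean was highest in SW480-gRNA-B-all, and was called in all 6 fits with 1 library left out. SEMA7A, PGF and the VEGF receptor FLT1 were higher by 1.78, 1.79 and 1.45 on the log2 scale (adjusted p = 0.036, 0.024 and 0.045). The kinase FYN and the collapsin response mediator genes DPYSL3 and DPYSL4 were lower, with log2 fold changes of -1.74, -1.33 and -1.71 (adjusted p = 0.019, 0.030 and 0.042).

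**Figure D5:**
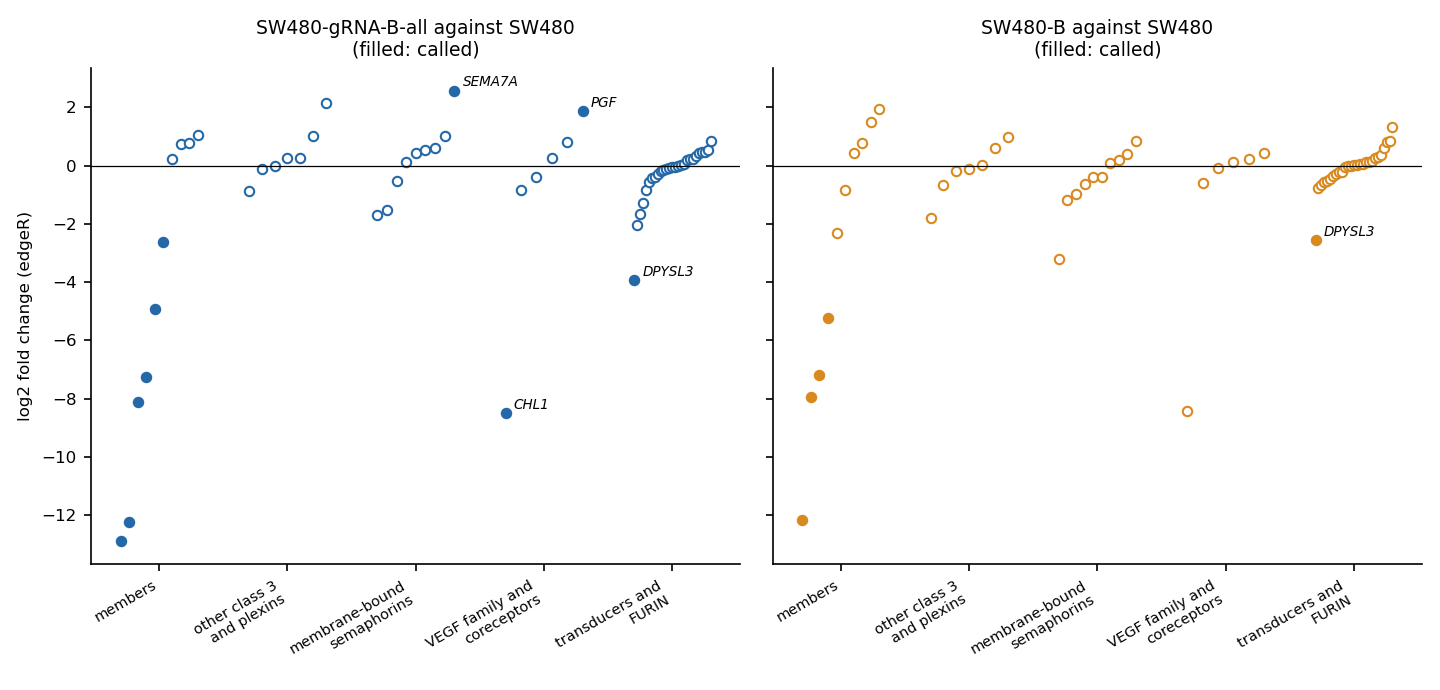
log2 fold change (edgeR) of the members and of the other tested pathway genes by role, for each BASP1 line against SW480; each point is a gene and points are sorted by value within a role. Filled points were called. The members reach -12.9 on the left and -12.2 on the right, SEMA7A, PGF, CHL1 and DPYSL3 are the called pathway genes on the left, and DPYSL3 is the called one on the right.

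The genes whose pattern over the 9 libraries was most like that of a member were sought among 16680 genes by Pearson's r of log2(CPM + 0.5). These correlations are descriptions, since the 9 points fall into 3 lines. SEMA3C, SEMA3D and SEMA3E held at most 4 counts in either BASP1 line. Genes near 0 in both of these lines thus tend to a high r with them. For SEMA3A the nearest genes were ENSG00000165659 (r = 0.991) and DPYSL3 (0.989), for SEMA3C ESRRG (0.999) and ENSG00000267243 (0.998), and for SEMA3D ENSG00000266976 (0.999) and GJA1 (0.996). SEMA3E was nearest to GJA1 (0.994) and SEMA3D (0.992). SEMA3F was nearest to RUNX3 (0.990) and CRMA (0.989), NRP2 to SHROOM2 (0.994) and ENSG00000180672 (0.987), and PLXNA2 to ITPR1 (0.954) and ENSG00000272796 (0.951). At least 34 genes had r above 0.95 with each semaphorin, and 2 with PLXNA2.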

How the data were processed

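The authors sequenced stranded poly(A) libraries, 3 for each of the 3 lines. The authors aligned the reads with STAR (per the file headers) to GRCh37, used Ensembl genes and deposited raw counts of fragments per gene identifier, not normalized; the counting program and versions are not given in the sources used here. Closing lines that name no gene (5.22% to 9.93% of a library on no gene) were left out. Sequencing metrics were not used. Symbols were matched for 55665 of 63677 identifiers, which hold 99.4% of the counts.

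For each pair of lines, the 6 libraries were tested in edgeR 4.0.16 (R 4.3.3): filterByExpr (least count 10, least total 15), TMM, glmQLFit (robust) and glmQLFTest, with Benjamini-Hochberg adjustment over all genes tested. A call needs an adjusted p under 0.05 and a change above 2-fold. Standard errors given with edgeR values were computed as the size of the log2 fold change over the square root of the test's F statistic. CPM uses TMM factors over all 9 libraries, and RPKM the exon length of the annotation. The test was tried on simulated data before use. Members, lists, naming rule and alternatives were chosen with earlier results of these data known. Named were all members, called pathway genes (up to 3 per role and comparison by adjusted p), called neighbours within 1 Mb (up to 2 per member) and, for called members, the 2 genes most like them. The genes around the chromosome 7 semaphorins, beyond 1 Mb, were described after their values were seen. Alternatives were RLE size factors, no filter, at least 1 CPM in 3 libraries, 1 fit over all 9 libraries, a block for the replicate number, leaving out each library, DESeq2 1.42.0, summing replicates 2 and 3 of SW480-gRNA-B-all, and no limit on the fold. Same-numbered libraries of SW480-B and SW480 deviated together (correlations of their deviations 0.290, 0.322 and 0.393), so that the block is given beside results of that pair that it changes. For SW480-gRNA-B-all and SW480 the correlations were 0.291, -0.037 and 0.266. Replicate 2 thus showed no shared deviation, and whether replicates 1 and 3 are paired was not tested. The marker PECAM1 was not matched and not used.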

Additional observations from a re-analysis of the deposited data

Results flagged for a closer look

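The change from SW480 differed between the BASP1 lines for 4 members by edgeR's quasi-likelihood test of SW480-gRNA-B-all against SW480-B, which is the test of that difference because the SW480 libraries are shared. SEMA3A had a fitted log2 difference of -7.61 (2 counts against 434), NRP2 of -4.10, SEMA3F of -2.55 and PLXNA2 of 1.66. In this order, the adjusted p by edgeR was 0.0056, 0.0023, 0.011 and 0.021. SEMA3A passed the filter on low counts through SW480-B alone, so that it could only be lower in SW480-gRNA-B-all. With all 9 libraries in 1 fit, SEMA3F (adjusted p = 0.052, edgeR) and PLXNA2 (0.199) were not called, nor were they once the SW480-gRNA-B-all libraries of replicates 2 and 3 had been added together (0.051 and 0.088). NRP2 was the one of these whose mean lay above SW480 in SW480-B and below it in SW480-gRNA-B-all. PLXNA2 lay between 3.37 and 3.90 CPM in SW480-gRNA-B-all and between 0.784 and 1.39 CPM in SW480-B, which corresponds to 323 and 93 counts. Groups of 3 libraries are too small for a search for single outlying libraries.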

How the results depend on the processing

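Over the log2 fold changes of the members (27 results, 339 alternative values), 287 kept their direction and their side of the threshold, 42 were no longer called, 7 became called and 3 reversed. The cause of these changes was not tested. For SW480-gRNA-B-all against SW480, summing replicates 2 and 3 of that line gave 3 members called in place of 6 and 97 genes in place of 1055, and DESeq2 called 2100 genes. Leaving out 1 library gave between 0 and 6 members and between 8 and 2659 genes. For SW480-B against SW480, DESeq2 called 7 members in place of 4, and the 216 genes called became 735 with no filter, 143 with at least 1 CPM in 3 libraries, 452 with all 9 libraries in 1 fit and 953 with DESeq2. Leaving out 1 library gave between 0 and 5 members and between 0 and 921 genes. At an unadjusted p under 0.05, 2549 genes differed in this comparison by edgeR. For SW480-gRNA-B-all against SW480-B, all 9 libraries in 1 fit gave 2 members in place of 4 and 654 genes in place of 1059, and the summed replicates gave 2 members and 446 genes. Leaving out 1 library gave between 2 and 5 members and between 420 and 1548 genes.

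The replicate block, for the numbers that pair SW480-B with SW480, called 4 members and 319 genes in that comparison (SEMA3F in place of SEMA3E). In the other pairs the libraries of replicate 2 did not deviate together (correlations -0.037 and -0.087). There the block gave 6 members and 1199 genes for SW480-gRNA-B-all against SW480, and 4 members and 1389 genes against SW480-B. It changed no other call of a member. SEMA3A in SW480-B was not called with no filter (adjusted p = 0.155, edgeR), and NRP2 there was (adjusted p = 0.0068). Values that reversed were none of them called: NRP1 in SW480-gRNA-B-all against SW480 without its replicate 1 (-0.37; range -0.37 to 1.74 with 1 library left out), and PLXND1 between the BASP1 lines without replicate 2 of SW480-B (0.070) or replicate 1 of SW480-gRNA-B-all (0.141; range -0.083 to 0.141). Depth limits SEMA3C, SEMA3D and SEMA3E in the BASP1 lines, where at most 4 counts per line were found.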
